A study of Mus musculus with 18 samples.

Results

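The genes described here are the 33 genes of glycolysis and glucose uptake in a mouse RNA-seq series: glycolytic enzymes, glucose and lactate transporters, enzymes that open the pentose phosphate pathway, and regulators of glycolytic flux. They were chosen by symbol, without the lactate dehydrogenases, and all 33 were found among the 25909 genes with an identifier in the deposited tables. The series asked how loss of Esrrb, a nuclear receptor of naive pluripotency, affects epiblast-like cells (EpiLC) and the primordial germ cell-like cells (PGCLC) made from them.

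All 18 libraries came from SGET mouse embryonic stem cells of strain B6CBA/129, which were kept in 2i/L medium and carry reporters for the germ cell gene Stella and for Esg1. EpiLC were made with bFGF at 12.5 ng/ml and activin A at 20 ng/ml and were not sorted. PGCLC were made from EpiLC with BMP4 and BMP8a (each 500 ng/ml), EGF (50 ng/ml), SCF (100 ng/ml) and LIF (1000 U/ml), and the SG+ETlow cells were sorted at day 3 or at a later time. The labels call that later time both day 5 and day 6, and it is called late here. Each of the 6 groups (WT or Esrrb KO at each stage) had 3 libraries. The KO libraries came from the lines A5, B1 and A2, with 1 library of each line per stage, and nothing in the labels says that the WT replicates were separate cultures, so p-values measure only the spread between these libraries. Stage and sorting changed together between EpiLC and PGCLC and cannot be told apart.

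Glycolysis splits glucose into pyruvate in the cytosol, and it runs through steps at which mammals hold several isoenzymes encoded by different genes. Hexokinase, phosphofructokinase and pyruvate kinase catalyse its committed steps, while SLC2A (GLUT) proteins bring glucose in and SLC16A (MCT) proteins carry lactate and pyruvate across the membrane. Pluripotent cells are known for a high glycolytic rate that differs between the naive and the primed state, and many glycolytic genes are targets of hypoxia-inducible factors and of MYC.

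Several limits on these genes and libraries bear on all that follows. Library totals ran from 3032965 to 5286330 counts (median 4246221), all 33 genes passed the filter on low counts, and levels are given as CPM, scaled to the TMM-adjusted library size. The check of the genotype went against its label in 1 library. Esrrb had 79 to 127 counts in WT EpiLC and 29 and 18 in KO lines A5 and B1, but 167 in the EpiLC library labelled KO A2. In PGCLC every KO library held fewer Esrrb counts (359 to 933) than every WT library (2434 to 3125). The labels do not say which part of the gene was removed, so the remaining KO counts check only this far. The EpiLC library labelled KO A2 also stood apart in markers of other cells. The summed level of 6 mesenchymal markers was 6110 CPM there against 383 to 437 CPM in WT EpiLC, most of it from Fn1 (5470 CPM). That of 6 trophoblast markers was 1270 CPM against 52.2 to 58.3 CPM, most of it from the keratin genes Krt8 and Krt18. Over the KO EpiLC libraries these keratins had means of 194.8 and 284.1 CPM, and Gata2, Gata3, Hand1 and Cdx2 means of 2.715 to 16.79 CPM. Krt8 is also among 6 endoderm markers, which summed to 34 to 500 CPM in KO EpiLC and 9.44 to 10.4 CPM in WT EpiLC. Line A2 was further low across chromosome 11 at every stage, with a median log2 difference to WT of -0.48, -0.42 and -0.46 over 1120 genes. Lines A5 and B1 had chromosome 11 medians between 0.03 and 0.08. Results are therefore given with and without this line where it moves them, and what these features of line A2 contribute was not tested. In bulk libraries, fewer cells of a type and less RNA per cell cannot be told apart.

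The promoter sequences shown are those of the genes that the results turn on: Hk1, Pfkp and Pgm1, whose rise into PGCLC is later compared between genotypes, Eno1, which was lower in KO EpiLC, and Hk2 and Pgk1, which each hold 2 matches to the hypoxia core. Each is the 250 bases before a RefSeq start site on GRCm38.p6, 5′ to 3′ on the gene's strand, with matches to ACGTG or AAGGTCA on either strand in capitals.
Hk1 promoter, chr10:62379909-62380158, - strand: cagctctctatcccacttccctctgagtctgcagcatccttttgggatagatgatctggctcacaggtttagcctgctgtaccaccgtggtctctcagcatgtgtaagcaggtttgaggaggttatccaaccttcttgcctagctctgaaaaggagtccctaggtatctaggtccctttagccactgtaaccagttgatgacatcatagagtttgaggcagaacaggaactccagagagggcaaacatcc
Pfkp promoter, chr13:6648772-6649021, - strand: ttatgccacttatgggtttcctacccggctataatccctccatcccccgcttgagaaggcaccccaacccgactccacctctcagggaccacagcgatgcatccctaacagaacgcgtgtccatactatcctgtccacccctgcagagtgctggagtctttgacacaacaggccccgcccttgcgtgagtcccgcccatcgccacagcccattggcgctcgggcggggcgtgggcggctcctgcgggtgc
Pgm1 promoter, chr5:64092689-64092938, + strand: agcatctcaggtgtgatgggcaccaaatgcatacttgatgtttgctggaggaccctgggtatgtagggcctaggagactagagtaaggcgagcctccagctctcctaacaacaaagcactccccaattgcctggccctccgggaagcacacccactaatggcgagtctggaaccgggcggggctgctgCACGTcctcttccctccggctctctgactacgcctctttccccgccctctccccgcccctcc
Eno1 promoter, chr4:150236458-150236707, + strand: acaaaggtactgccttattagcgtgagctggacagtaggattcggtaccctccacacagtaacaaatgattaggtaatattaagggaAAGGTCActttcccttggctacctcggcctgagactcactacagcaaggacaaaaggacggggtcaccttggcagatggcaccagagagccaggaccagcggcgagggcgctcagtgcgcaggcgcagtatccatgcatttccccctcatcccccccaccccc
Hk2 promoter, chr6:82774455-82774704, - strand: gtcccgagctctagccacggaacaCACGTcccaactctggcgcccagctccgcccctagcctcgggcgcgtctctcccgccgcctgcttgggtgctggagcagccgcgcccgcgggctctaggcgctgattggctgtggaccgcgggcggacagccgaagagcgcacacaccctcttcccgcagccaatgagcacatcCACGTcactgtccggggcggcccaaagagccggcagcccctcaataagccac
Pgk1 promoter, chrX:106186850-106187099, + strand: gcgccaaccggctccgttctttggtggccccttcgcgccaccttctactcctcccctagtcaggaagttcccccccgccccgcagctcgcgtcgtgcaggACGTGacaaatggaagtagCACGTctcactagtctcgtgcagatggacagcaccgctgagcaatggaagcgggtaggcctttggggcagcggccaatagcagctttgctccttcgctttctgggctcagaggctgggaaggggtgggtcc

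ACGTG, the core of the hypoxia response element, was present in at least 1 promoter of 14 of the 31 members with a RefSeq promoter (45.2%), against 18.5% of 27025 genes. The members were Adpgk, Aldoa, Hk2, Pdk3, Pfkfb3, Pfkm, Pgam1, Pgk1, Pgm1, Pgm2, Pkm, Slc16a1, Slc16a3 and Slc2a1. The E-box CACGTG, whose letters contain ACGTG, was in 3 of 31 members (9.68%) against 6.86% of genes. The GC box GGGCGG was in 22 of 31 (71.0%) against 35.4%. AAGGTCA, an extended nuclear receptor half-site that ESRRB can bind, was in Eno1 alone (3.23% of members against 4.7% of genes), and its longer form TCAAGGTCA was in 0 of 31 against 0.422% of genes. Both strands were searched, and a match or its absence describes these letters in this window and nothing about binding. The 27025 genes were all those with a RefSeq promoter, whether expressed here or not. They held 32851 promoters, and the 31 members held 44. The part of expression, base composition and number of promoters in these shares was not tested. Hk1 and Pfkp held neither ACGTG nor AAGGTCA in the windows searched.

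The symbols Pgm1 and Pgm2 are used as the deposited tables give them, and they are swapped relative to GENCODE and RefSeq. The gene deposited as Pgm1 (ENSMUSG00000029171, chr5:64092950-64128351 on GRCm38) is named Pgm2 there, and the gene deposited as Pgm2 (ENSMUSG00000025791, chr4:99929414-99987294) is named Pgm1. Among the other genes with large differences, Hk1 lies at chr10:62268855-62379908, Pfkp at chr13:6579768-6648777, Eno1 at chr4:150236721-150248879, Pgd at chr4:149149991-149166771 and Slc2a3 at chr6:122727809-122801640.

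Before any comparison, the 33 genes differed widely in level. On the scale of CPM per kb of exon, Aldoa was highest in WT EpiLC (mean 628 CPM per kb), followed by Pkm (541), Slc2a1 (337), Tpi1 (174), Slc16a3 (125) and Eno1 (111). Lowest were Eno2 (0.546 CPM per kb) and Pfkfb4 (0.792). This order, like the isoenzyme shares below, also depends on exon length, which joins the exons of all isoforms. It further depends on counting only uniquely assigned reads, and 10 members share at least 200 bases at 95% identity with other genes. At day 3 in WT, Aldoa (1010 CPM per kb) and Pkm (568) were still at the top, and Slc2a3 (270) stood above Slc2a1 (225), where in WT EpiLC it had been at 30.0 against 337. Together the members took 1.08 to 1.13% of the TMM-adjusted library size in WT EpiLC, 0.883 to 0.913% in KO EpiLC, 1.51 to 1.54% in WT day 3 and 1.33 to 1.36% in KO day 3. In late PGCLC the ranges overlapped, at 1.43 to 1.53% in WT and 1.37 to 1.51% in KO.

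**Figure D1:**
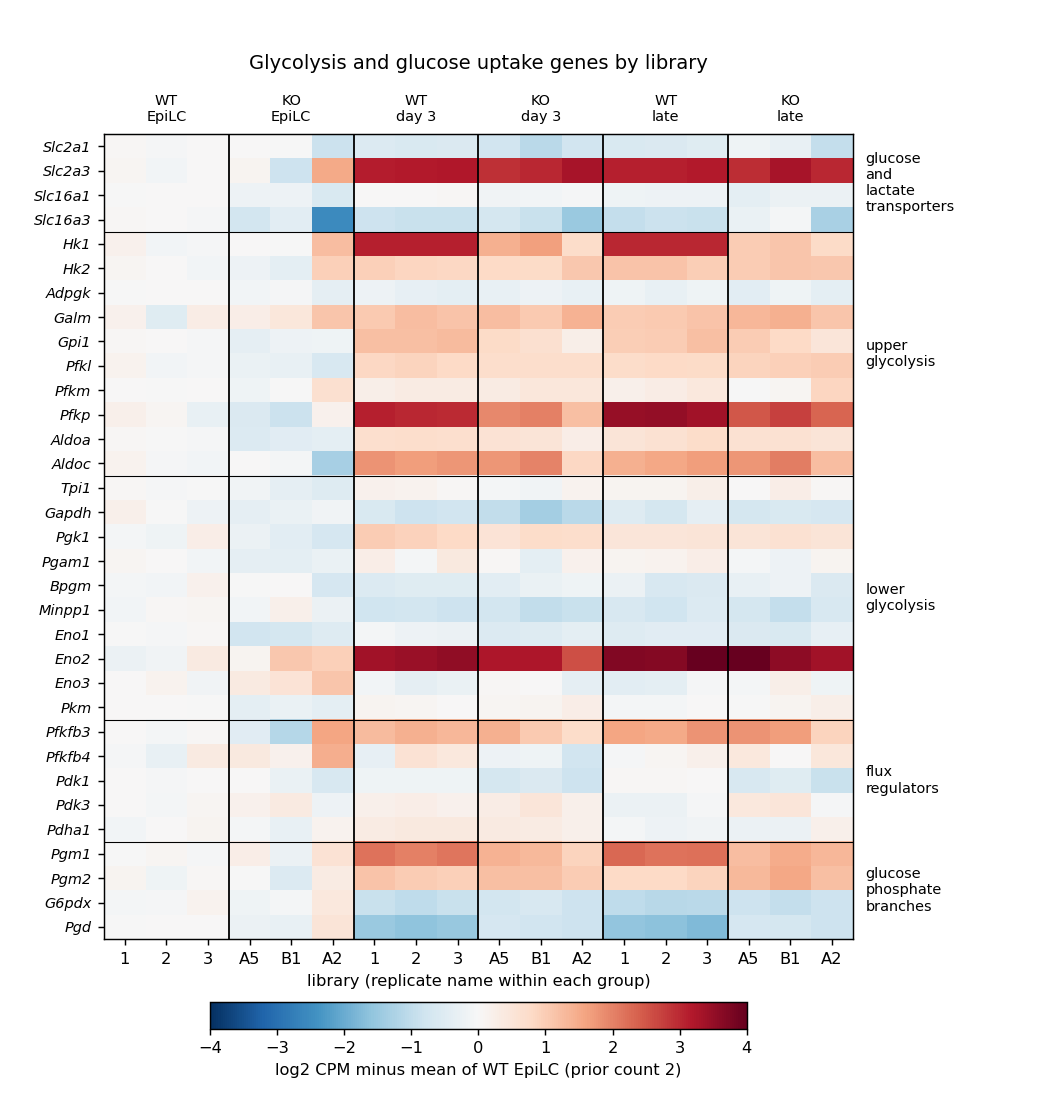
Level of each of the 33 genes (y axis, by role) in each of the 18 libraries (x axis, by genotype and stage), as log2 CPM with a prior count of 2 minus the mean of the 3 WT EpiLC libraries. Red is higher and blue is lower than WT EpiLC, and Hk1, Pfkp, Eno2 and Slc2a3 show the largest rises into WT PGCLC.

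In WT cells the step from EpiLC to day 3 PGCLC came with higher levels of Hk1, Pfkp, Eno2 and Slc2a3 and lower levels of Pgd and G6pdx. Of the 33 members, 15 rose and 7 fell, against 29% of the 12856 genes tested called higher and 28.5% called lower (57.5% either way), by edgeR's quasi-likelihood test with Benjamini-Hochberg adjustment over all genes. The median log2 fold change was 0.28 over the members and 0 over all genes. WT libraries did not overlap between the stages in 27 of 33 members, the 22 called members included, against 77% of all tested genes.

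Glucose uptake genes moved in opposite directions. Slc2a3, the high-affinity glucose transporter GLUT3, stood at 228, 203 and 222 CPM in WT EpiLC and at 1920, 1950 and 2000 CPM at day 3. Every day 3 library lay far above every EpiLC library, and the gene rose 8.99-fold (log2 3.17 ± 0.39 SE, edgeR adjusted p = 6.44e-06). Slc2a1, the widely expressed transporter GLUT1, fell from 1210, 1140 and 1190 CPM to 800, 774 and 793 CPM (log2 -0.58 ± 0.20, edgeR adjusted p = 0.0178, or 0.0507 without WT day 3 replicate 2). On the per-kb scale Slc2a3 made up 8.17% ± 0.231 (SD, n = 3) of the summed level of these transporters in WT EpiLC and 54.6% ± 0.751 at day 3. The lactate transporter Slc16a3 (MCT4) was at 638 to 691 CPM in EpiLC and 357 to 377 CPM at day 3 and did not pass the test (log2 -0.87 ± 0.38, edgeR adjusted p = 0.0583), though it did in a fit of these 2 groups alone (-0.88 ± 0.05, edgeR adjusted p = 2.41e-46). That fit takes its spread from WT libraries alone, which the labels do not name as separate cultures. The partner of Slc16a3, Slc16a1 (MCT1), had a log2 fold change of 0.02 ± 0.09.

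Of the 10 genes of upper glycolysis, which take glucose to triose phosphates, 8 rose and 1 fell. Hk1, the hexokinase that most tissues express, was at 40.6, 33.4 and 35.5 CPM in WT EpiLC and at 315, 318 and 320 CPM at day 3. The stages did not overlap, and Hk1 rose 8.71-fold (log2 3.12 ± 0.28, edgeR adjusted p = 2.53e-07). Hk2, the hexokinase known for its control by growth signals and hypoxia, rose less, from 206 to 238 CPM to 393 to 435 CPM (log2 0.88 ± 0.24, edgeR adjusted p = 0.0049). Pfkp, the platelet-type phosphofructokinase, was at 82.1, 75.1 and 57.6 CPM in EpiLC and at 620, 579 and 564 CPM at day 3. It rose 8.20-fold (log2 3.04 ± 0.24, edgeR adjusted p = 8.55e-08), while the liver-type Pfkl rose by 0.84 ± 0.09 on the log2 scale. The muscle-type Pfkm had a range of 94.6 to 96.7 CPM and then 113 to 121 CPM and was not called. Aldoc rose by 1.75 ± 0.31 and Aldoa by 0.69 ± 0.09 (log2, edgeR adjusted p = 0.000164 and 7.74e-06). Gpi1, the isomerase that follows hexokinase, rose by 1.22 ± 0.14, and Galm, which interconverts the anomers of glucose and galactose, by 1.13 ± 0.22. The exception was Adpgk, an ADP-dependent glucokinase, which fell by 0.31 (edgeR adjusted p = 0.0137, or 0.0664 without WT day 3 replicate 3).

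The lower part of the pathway was mixed, with 2 of 10 genes higher and 3 lower. Eno2, the enolase typical of neurons, was at 2.10, 2.22 and 3.39 CPM in WT EpiLC and at 29.9, 32.2 and 34.3 CPM at day 3. That was a 12.4-fold rise (log2 3.63 ± 0.31, edgeR adjusted p = 1.56e-07), the largest among the 33 genes in this comparison, from a low level. The ubiquitous enolase Eno1 was at 583 to 622 CPM and then 504 to 571 CPM and was not called, and it still made up 84.5% ± 0.751 (SD, n = 3) of enolase at day 3 on the per-kb scale. Pgk1, which makes the first ATP of the pathway, rose by 0.90 ± 0.12 on the log2 scale. Gapdh, Minpp1 and Bpgm fell (log2 -0.76, -0.80 and -0.51), the call of Bpgm being lost without WT EpiLC replicate 3 or WT day 3 replicate 1 (edgeR adjusted p up to 0.0825). Gapdh is uncertain: its libraries held only 10.3 to 31.5 CPM over all groups, and 127 other genes, 122 of them pseudogenes, share at least 200 bases with it at 95% identity or more. Pkm, the last enzyme, was not called.

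Both members of the pentose phosphate pathway fell, while the phosphoglucomutase genes rose. Pgd, the 6-phosphogluconate dehydrogenase, was at 426, 443 and 437 CPM in WT EpiLC and at 156, 141 and 152 CPM at day 3. It fell to 0.344 times its EpiLC level (log2 -1.54 ± 0.16, edgeR adjusted p = 8.21e-07). G6pdx, the first enzyme of the pathway, fell from 123 to 143 CPM to 64.4 to 70.9 CPM (log2 -0.94 ± 0.13, edgeR adjusted p = 1.58e-05). Pgm1 and Pgm2, members of the phosphoglucomutase family that link glucose 6-phosphate to glycogen and pentose phosphates, rose 4.36-fold and 2.06-fold. Among the flux regulators, Pfkfb3, which makes the activator of phosphofructokinase, rose 2.56-fold (edgeR adjusted p = 0.0208), and Pdha1, a subunit of pyruvate dehydrogenase, rose by 0.36 ± 0.12 on the log2 scale. The Pfkfb3 call was lost without any single WT EpiLC replicate (edgeR adjusted p up to 0.0596), and that of Pdha1 without WT EpiLC replicate 1 (0.0673). Of the 22 calls, 17 were kept in all 13 alternatives tried, the exceptions being Slc2a1, Adpgk, Bpgm, Pfkfb3 and Pdha1.

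**Figure D2:**
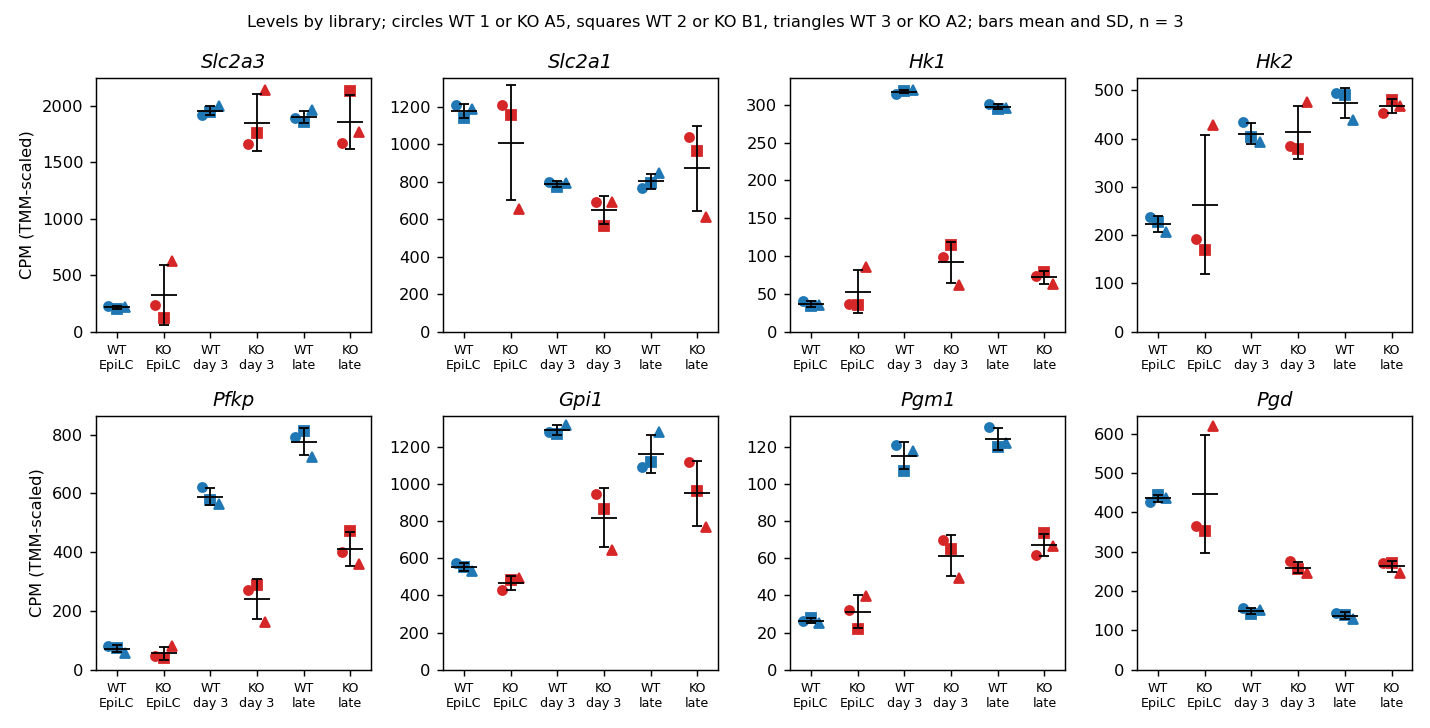
CPM (y axis, linear, from 0) of single genes in each library of the 6 groups (x axis), with bars for the mean and SD of 3 libraries and marker shapes for the replicate or KO line. Hk1 reaches 315 to 320 CPM in WT day 3 and 61.2 to 115 CPM in KO day 3, while Pgd is lower in WT than in KO at both PGCLC stages.

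Lists of related genes place this in context. These lists were chosen with earlier results of these data known. Of 15 tested genes of the hypoxia response outside glycolysis, 12 rose and 0 fell in WT (median log2 1.59), led by Ankrd37 (3.02 ± 0.22), P4ha1 (2.60 ± 0.33), Ndrg1 (2.57 ± 0.60) and Ero1l (2.12 ± 0.29). Among 10 regulators of glycolysis, Stat3 rose (log2 2.74 ± 0.32), while Lin28b (-2.48 ± 0.23), Myc (-2.03 ± 0.53) and Lin28a (-1.85 ± 0.20) fell. Hif1a, which encodes a subunit of hypoxia-inducible factor and was picked out after its values were seen, fell by 0.67 on the log2 scale. Of 7 further pentose phosphate genes 3 rose, Rpe (0.78) and Rpia (0.65) among them, and 2 fell, Tkt (-0.97) and H6pd (-0.64). Of 10 tested isoenzyme genes outside the members 5 rose and 2 fell, with Pfkfb2 at 1.92 ± 0.23 and Fbp1 at -2.29 ± 0.46. Of 6 other tested transporter genes 3 rose and 1 fell, with Slc2a8 at 1.06 ± 0.23 and the sodium-coupled Slc5a1 at -2.04 ± 0.29, while Slc2a12 was at 0 CPM in every WT EpiLC library and at 2.9 to 4.9 CPM at day 3. Of 9 tested genes of pyruvate entry into mitochondria, Pdk4 (a mean of 34.7 CPM at day 3 against 2.14 CPM in EpiLC) and Pdk2 rose and Pdhb fell. At the same step 7 of 7 germ cell markers were higher and 7 of 7 formative epiblast markers lower. Of 10 naive pluripotency markers 9 were also higher (median log2 3.99, against 3.68 for the germ cell markers). Dppa3 (Stella) is in the germ cell and the naive list, and it is a reporter gene of the sorted cells.

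KO cells made the same step with 16 members higher and 8 lower, against 20.6% of all tested genes higher and 21.4% lower (42% either way). The median log2 fold change was 0.32 over the members and -0.03 over all genes. Slc2a3 was at 236 (A5), 121 (B1) and 623 (A2) CPM in KO EpiLC and at 1660, 1760 and 2140 CPM at day 3. It rose 5.67-fold (log2 2.50 ± 0.37, edgeR adjusted p = 9.45e-05), and the high EpiLC value belonged to the library labelled KO A2. Pfkp (log2 2.12 ± 0.24), Eno2 (2.38 ± 0.29), Aldoc (1.97 ± 0.31), Pgm2 (1.18 ± 0.16), Pfkl (1.10 ± 0.10), Pgk1 (1.10 ± 0.12), Pgm1 (0.97 ± 0.17) and Aldoa (0.91 ± 0.09) rose as well. Pkm rose in KO (0.50 ± 0.08, edgeR adjusted p = 0.000109). Gapdh, Minpp1, G6pdx, Eno3 and Pgd fell (log2 -0.90, -0.84, -0.82, -0.82 and -0.78). In the same comparison 11 of 15 hypoxia response genes rose and 0 fell (median log2 1.19), and 4 of 10 regulators of glycolysis rose and 3 fell.

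Hk1 was called in KO although its lines moved in opposite directions. It was at 36.8 (A5), 36 (B1) and 85.5 (A2) CPM in KO EpiLC and at 98.6, 115 and 61.2 CPM at day 3. Lines A5 and B1 were higher at day 3, and line A2 was lower. Over the 3 lines the rise was 1.73-fold (log2 0.79 ± 0.26, edgeR adjusted p = 0.0252). With the KO line as a block, which the lines warrant because libraries of a line deviated together, the value was 0.80 ± 0.33 and the call was lost (edgeR adjusted p = 0.0641). Without line A2 it was 1.53 ± 0.10 (edgeR adjusted p = 6.03e-12). The calls of Hk2, Slc2a1, Pdk1 and Galm in KO also rested on libraries that overlapped between the stages. Of the 24 KO calls, 14 were kept in all 13 alternatives. Tpi1 and Pfkfb4 lost their calls without line A2.

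The difference between the genotypes in this step was tested directly. It was called for 4 members (2 higher, 2 lower), against 2.96% of all tested genes higher and 3.63% lower (6.59% either way). Hk1 rose less in KO than in WT by 2.33 ± 0.38 on the log2 scale (edgeR adjusted p = 0.00253), and so did Pgm1, by 1.16 ± 0.23 (edgeR adjusted p = 0.00972). Both calls were kept in all 19 alternatives, with values from -2.54 to -1.59 for Hk1 and from -1.35 to -0.81 for Pgm1. Without line A2 the Hk1 difference was -1.59 ± 0.13, a smaller value than with it. Pkm rose more in KO (log2 difference 0.43 ± 0.11, edgeR adjusted p = 0.0292), and Pgd fell less (0.76 ± 0.22, edgeR adjusted p = 0.0464).

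The calls of Pkm and Pgd were close to the threshold: Pkm lost its call in 9 of 19 alternatives and Pgd in 14. Each left-out WT library of these stages ended both calls, as did omitting the filter or fitting only the groups compared. Both genes kept their direction throughout. With the KO line and WT replicate as a block, all 4 calls were kept, and Eno1 (log2 difference 0.34 ± 0.09, edgeR adjusted p = 0.0321) and Slc16a3 (1.05 ± 0.28, edgeR adjusted p = 0.0361) were added, in a fit that called 11.3% of all tested genes. Without line A2, 11 members were called in place of 4, against 14.7% of all tested genes in that fit, with Slc16a3 (0.65 ± 0.11), Eno1 (0.36 ± 0.09), Aldoa (0.35 ± 0.08), G6pdx (0.38 ± 0.13) and Pfkfb3 (0.66 ± 0.22) higher and Slc2a1 (-0.34 ± 0.10) and Pdk1 (-0.36 ± 0.11) lower in addition. For Pfkp, Eno2 and Pfkfb4 the difference was -0.92 ± 0.32, -1.25 ± 0.45 and -1.54 ± 0.54 and did not pass (edgeR adjusted p = 0.0969, 0.0999 and 0.0931). Outside the members, the pyruvate dehydrogenase kinase gene Pdk4 showed a log2 difference of -4.39 ± 0.79, and Lin28b (1.48 ± 0.31), Mycn (1.31 ± 0.31) and Lin28a (1.27 ± 0.28) the opposite sign. Rpe (-0.76 ± 0.20), P4ha2 (-1.23 ± 0.35), Taldo1 (0.40 ± 0.11) and Slc5a1 (1.69 ± 0.42) were also called.

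**Figure D3:**
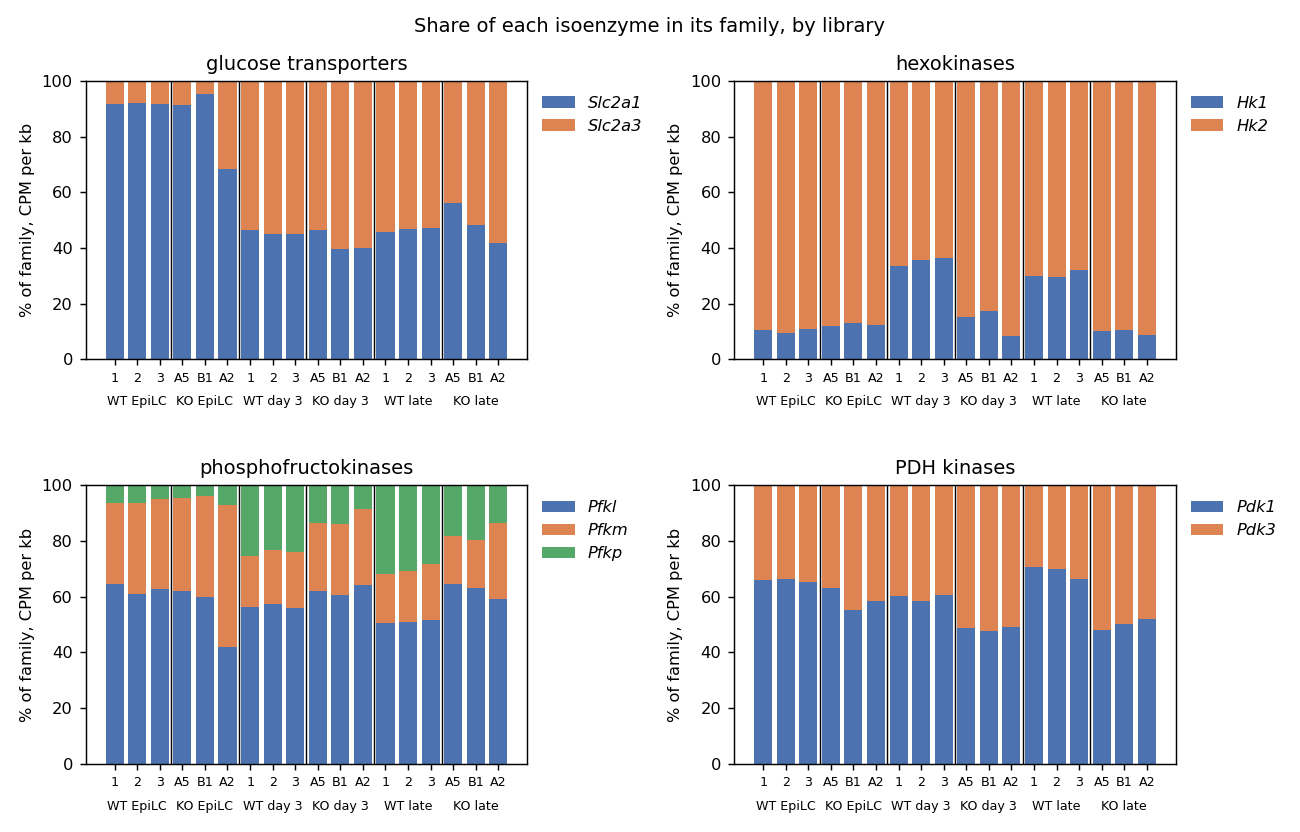
Share of each isoenzyme in its family (y axis, percent of the summed CPM per kb of the family's members) in each of the 18 libraries (x axis). The Hk1 share of hexokinase is 33.6 to 36.3% in WT day 3 and 8.24 to 17.5% in KO day 3.

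Day 3 KO PGCLC had less Hk1, Pfkp, Pgm1, Gpi1, Pdk1 and Eno1 RNA than WT and more Pgd. These were 6 members lower and 1 higher, against 5.18% of all tested genes lower and 5% higher (10.2% either way). The median log2 fold change was -0.14 over the members and 0.01 over all genes, and in all 3 lines it was between -0.15 and -0.12. KO and WT libraries did not overlap in 17 of 33 members, the 7 called members included, against 36.6% of all tested genes. This comparison shares its WT libraries with the WT step described above.

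Hk1 stood at 98.6 (A5), 115 (B1) and 61.2 (A2) CPM in KO day 3 against 315, 318 and 320 CPM in WT. All 3 lines were below WT, line A2 most, and the KO level was 0.287 times that of WT (log2 -1.80 ± 0.26, edgeR adjusted p = 0.000365). Its partner Hk2 was at 379 to 477 CPM in KO and 393 to 435 CPM in WT (log2 0.01 ± 0.23), so that Hk1 made up 13.6% ± 4.82 (SD, n = 3) of hexokinase in KO and 35.2% ± 1.40 in WT on the per-kb scale. Pfkp was at 270 (A5), 288 (B1) and 163 (A2) CPM in KO against 620, 579 and 564 CPM in WT. Again every line was below WT (log2 -1.29 ± 0.22, edgeR adjusted p = 0.00175), and Pfkl (-0.15 ± 0.09) and Pfkm (0.11 ± 0.21) were not called. Gpi1 was at 948, 866 and 643 CPM in KO against 1280, 1270 and 1320 CPM in WT (log2 -0.65 ± 0.14, edgeR adjusted p = 0.00668).

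Pgm1 was at 70.0 (A5), 65.2 (B1) and 49.2 (A2) CPM in KO day 3 against 121, 107 and 118 CPM in WT, with no overlap (log2 -0.91 ± 0.16, edgeR adjusted p = 0.00173). Its family partner Pgm2 was at 96.3 to 108 CPM in KO and 91.6 to 103 CPM in WT. Pgd was the member that was higher in KO, at 276, 257 and 246 CPM against 156, 141 and 152 CPM (log2 0.79 ± 0.16, edgeR adjusted p = 0.00439). The 3 lines lay close together, and G6pdx, the enzyme before it, had a log2 fold change of 0.20 ± 0.13 that did not pass. Pdk1, a kinase that inhibits pyruvate dehydrogenase, was at 160, 173 and 149 CPM in KO against 231 to 234 CPM in WT (log2 -0.54 ± 0.13, edgeR adjusted p = 0.0151), and Pdk3 was not called. Eno1 was lower by a log2 fold change of -0.31 ± 0.09 (edgeR adjusted p = 0.0365). None of the 4 transporters was called with all lines in, at log2 fold changes from -0.28 to -0.08, and Slc2a1 was called without line A2 (-0.34 ± 0.07, edgeR adjusted p = 0.00145).

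The calls of Hk1, Pfkp, Pgm1, Gpi1 and Pgd were kept in all 12 alternatives. That of Eno1 was lost in 6 of 12, including without any single WT library, A5 or B1 (edgeR adjusted p up to 0.154), and that of Pdk1 without WT replicate 1 or 3 or without A2 (up to 0.0628). Without line A2 in any group 9 members were called, against 20.9% of all tested genes in that fit, with Slc2a1 and Tpi1 (-0.25 ± 0.08) added as lower, and Hk1 (-1.59 ± 0.08), Pfkp (-1.08 ± 0.10), Pgm1 (-0.77 ± 0.11), Gpi1 (-0.51 ± 0.08) and Pgd (0.83 ± 0.07) still called. Pfkp shares 748 bases of exon with Pitrm1 on the other strand, a gene with 13468 counts over the 18 libraries. Hk1 shares 157 bases with the antisense gene Hk1os, which held 9 counts in all. The library kit keeps strand, but whether the counting used strand is not stated, so reads of Pfkp and Pitrm1 may not be separated, and 12 of the 33 members share exon bases with a gene on the other strand. The summed level of the 6 trophoblast markers, the keratin genes Krt8 and Krt18 among them, was 124 to 308 CPM in these KO libraries and 69.1 to 104 CPM in WT. Cdx2, which defines that lineage, was at 0 to 0.188 CPM in WT and 0.217 to 5.10 CPM in KO. Their part in the differences was not tested.

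Among related lists at day 3, 3 of 10 regulators of glycolysis were higher in KO: Myc (log2 1.83 ± 0.53), Lin28b (1.30 ± 0.23) and Lin28a (0.85 ± 0.20). Of 7 further pentose phosphate genes, Prps1 (-0.87 ± 0.17) and Rpe (-0.52 ± 0.14) were lower and 0 were higher. Pdk4 was at a mean of 4.62 ± 1.66 CPM (SD, n = 3) in KO and 34.7 ± 3.65 CPM in WT (log2 -2.86 ± 0.50, edgeR adjusted p = 0.00177). Of 15 hypoxia response genes, Vegfa alone was called, lower in KO (-1.22 ± 0.25).

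**Figure D4:**
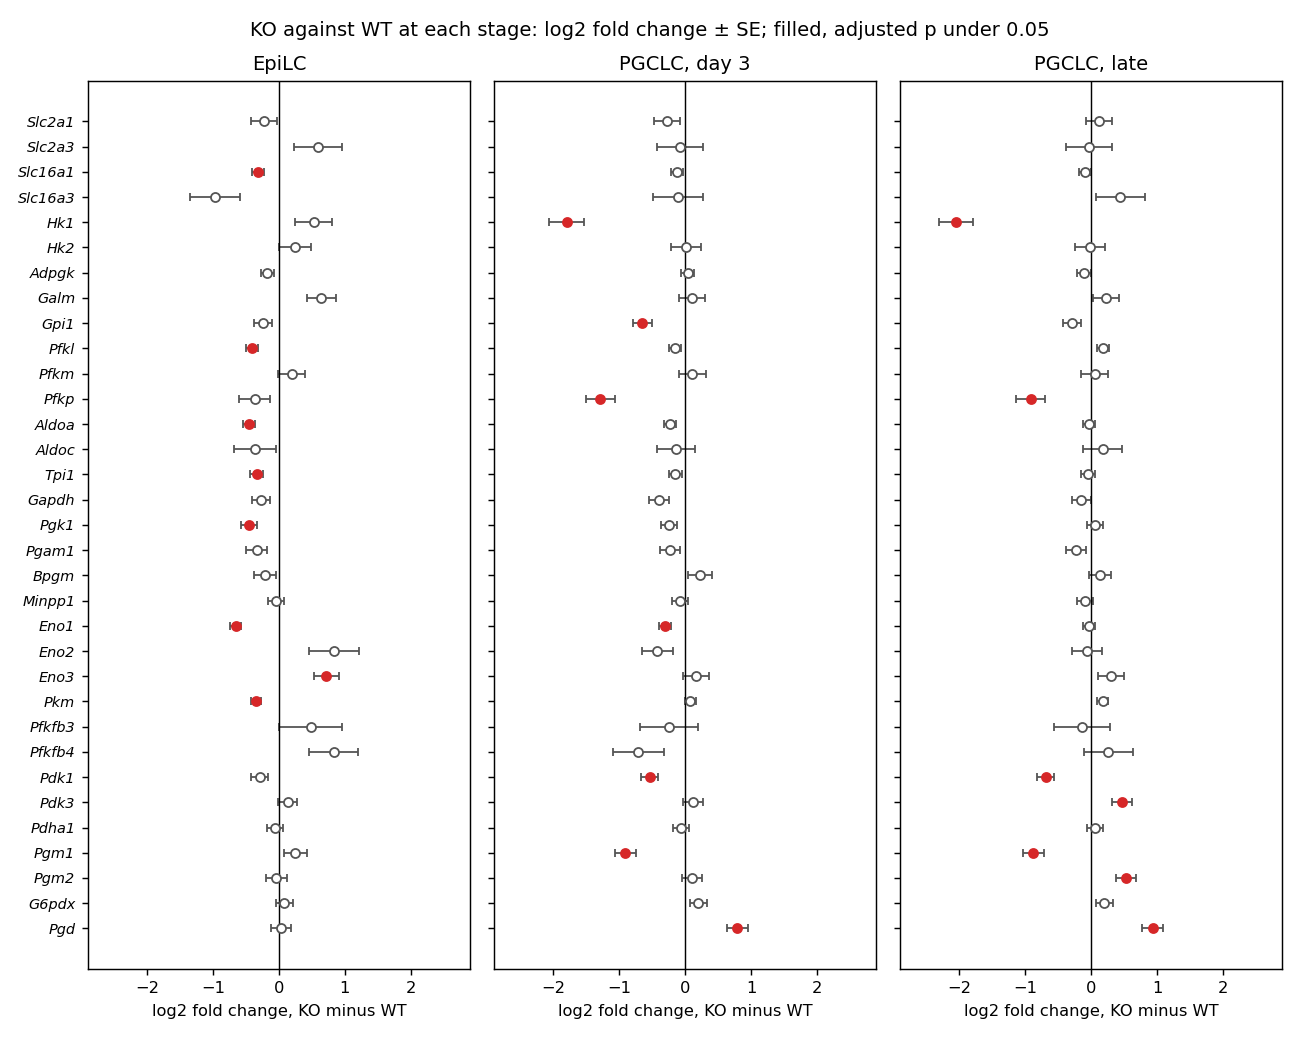
Log2 fold change of KO against WT (x axis) with its standard error for each of the 33 genes (y axis), in 1 panel per stage. Filled points passed an edgeR adjusted p of 0.05: 8 in EpiLC, 7 at day 3 and 7 in late PGCLC, with Hk1 the farthest from 0 at both PGCLC stages.

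In late PGCLC, Hk1, Pfkp, Pgm1 and Pdk1 were lower in KO and Pgd, Pgm2 and Pdk3 higher. This was 4 members lower and 3 higher, against 7.62% of all tested genes lower and 9.83% higher (17.5% either way), a share close to the background. The median log2 fold change was -0.02 over the members and 0.01 over all genes. KO and WT libraries did not overlap in 9 of 33 members, 6 of the 7 called members included, against 41.1% of all tested genes. The libraries are other than those of day 3, but the KO lines are the same.

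Hk1 was at 73.7 (A5), 79.4 (B1) and 62.5 (A2) CPM in KO against 301, 295 and 296 CPM in WT. The 3 lines lay close together and all far below WT, at 0.242 times its level (log2 -2.05 ± 0.26, edgeR adjusted p = 6.98e-05). Hk1 then made up 9.72% ± 1.01 (SD, n = 3) of hexokinase in KO and 30.5% ± 1.30 in WT on the per-kb scale. Pfkp was at 400, 471 and 358 CPM against 792, 812 and 724 CPM (log2 -0.92 ± 0.22, edgeR adjusted p = 0.00849). Pgm1 was at 62.0, 73.8 and 66.4 CPM against 131, 120 and 122 CPM (log2 -0.88 ± 0.16, edgeR adjusted p = 0.00105). For both, every KO library was below every WT library.

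Pgd was at 272, 270 and 246 CPM in KO against 144, 140 and 129 CPM in WT (log2 0.93 ± 0.16, edgeR adjusted p = 0.000666). Pdk1 was at 167, 189 and 142 CPM against 274, 269 and 261 CPM (log2 -0.69 ± 0.13, edgeR adjusted p = 0.0016). Its relative Pdk3 had 59.2, 62.0 and 43.1 CPM in KO against 37.4 to 43.5 CPM in WT, with an overlap through line A2 (log2 0.46 ± 0.15, edgeR adjusted p = 0.0408). On the per-kb scale Pdk1 was 50.1% ± 1.95 (SD, n = 3) of the sum of these kinases in KO and 69.0% ± 2.27 in WT. Pgm2, at 108 to 137 CPM against 81.5 to 86.7 CPM, was also higher in KO (log2 0.53 ± 0.15, edgeR adjusted p = 0.026). Gpi1 was no longer called (log2 -0.29 ± 0.14), and Eno1 had a log2 fold change of -0.03 ± 0.09.

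The calls of Hk1, Pfkp, Pgm1, Pdk1 and Pgd were kept in all 12 alternatives, that of Pdk3 was lost in 8 (edgeR adjusted p up to 0.149), and that of Pgm2 without any single WT library or B1 (up to 0.104). Without line A2, 11 members were called, against 29.9% of all tested genes in that fit, adding Slc16a3 (log2 0.72 ± 0.08), Aldoc (0.36 ± 0.09) and Slc2a1 (0.32 ± 0.07) as higher and Pfkm (-0.29 ± 0.08) as lower. Of 9 tested genes of pyruvate entry into mitochondria 5 were lower in KO and 0 higher, among them Pdk4 (-2.43 ± 0.48), Pdk2 (-0.75 ± 0.19), Pdp2 (-0.56 ± 0.14) and the dehydrogenase subunit Dlat (-0.35 ± 0.11). Of 10 regulators of glycolysis 4 were higher: Epas1 (1.51 ± 0.49), Lin28a (1.36 ± 0.20), Mycn (1.33 ± 0.22) and Lin28b (1.29 ± 0.23). The pentose phosphate genes H6pd (1.19 ± 0.23) and Prps1 (-0.81 ± 0.17) were called in opposite directions. Other calls were the transporter chaperone Bsg (-0.43 ± 0.14), Fbp1 (1.79 ± 0.48), Fbp2 (-2.18 ± 0.50) and Ddit4 (0.80 ± 0.15), and Slc2a12 was at a mean of 0.574 CPM in KO and 3.04 CPM in WT. The 6 mesenchymal markers summed to 1060 to 2190 CPM in KO and 1120 to 1190 CPM in WT, most of it Fn1, and their part was not tested.

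In EpiLC the members lower in KO were 6 enzymes and the lactate transporter Slc16a1, and Hk1, Pfkp, Pgm1, Pdk1 and Pgd, which differed in PGCLC, were not called. Eno1, Aldoa, Pgk1, Pfkl, Pkm, Tpi1 and Slc16a1 were lower and Eno3 was higher, against 4.15% of all tested genes lower and 6.93% higher (11.1% either way). KO and WT libraries did not overlap in 12 of 33 members, the 8 called members included, against 32.3% of all tested genes. The median log2 fold change was -0.18 over the members and 0.01 over all genes. Line by line it was -0.15 (A5), -0.27 (B1) and -0.16 (A2), with 11, 7 and 15 of 33 members above WT.

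Eno1 was at 353 (A5), 370 (B1) and 418 (A2) CPM in KO EpiLC against 593, 583 and 622 CPM in WT. No library overlapped, and the KO level was 0.635 times that of WT (log2 -0.66 ± 0.09, edgeR adjusted p = 0.00189). Aldoa was at 1260, 1340 and 1400 CPM against 1910, 1800 and 1770 CPM (log2 -0.46 ± 0.09, edgeR adjusted p = 0.00922), again with every line below WT. Pkm was at 2060 to 2220 CPM against 2650 to 2770 CPM (log2 -0.35 ± 0.08, edgeR adjusted p = 0.015). Pfkl (-0.41 ± 0.09), Pgk1 (-0.45 ± 0.12), Tpi1 (-0.34 ± 0.10) and Slc16a1 (-0.32 ± 0.09) were lower with edgeR adjusted p between 0.0178 and 0.044. Eno3, the muscle-type enolase, was at 30.3, 34.8 and 51.9 CPM against 21.4 to 25.9 CPM (log2 0.72 ± 0.19, edgeR adjusted p = 0.0276). The Eno1 share of enolase was 75.4% ± 3.55 (SD, n = 3) in KO and 88.7% ± 1.15 in WT on the per-kb scale. Pgk1, Eno1, Tpi1, Aldoa and Pkm each share 95% identity over at least 200 bases with 1 to 4 other genes, nearly all pseudogenes, so that some of their reads may be counted elsewhere.

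In the library labelled KO A2 several members went their own way. Hk1 was at 85.5 CPM there and at 36.8 and 36 CPM in lines A5 and B1, against 33.4 to 40.6 CPM in WT. Hk2 was at 429 CPM against 193 and 169 CPM in the other KO lines, Pfkfb3 at 80.5 against 19.4 and 11.8 CPM, and Pgd at 619 against 365 and 353 CPM. Slc16a3 was at 115 CPM in that library, 404 in A5 and 501 in B1, against 638 to 691 CPM in WT. All 3 lines were below WT, but the gene did not pass (log2 -0.97 ± 0.38, edgeR adjusted p = 0.101). Without only that EpiLC library it did not pass either (-0.56 ± 0.26, edgeR adjusted p = 0.233). With line A2 left out at every stage, Slc16a3 was called lower (-0.57 ± 0.08, edgeR adjusted p = 6.62e-05). That fit called 13 members (12 lower), against 13.8% of all tested genes, and its shared estimate of spread also lacks the PGCLC libraries of line A2. Among them were Pfkp (-0.74 ± 0.13), Pfkfb3 (-0.76 ± 0.18), Hk2 (-0.30 ± 0.08), Gpi1 (-0.29 ± 0.08) and Pgd (-0.28 ± 0.07), all lower, and Pgk1 was no longer called. Pfkp, Pfkfb3, Hk2, Gpi1 and Pgd kept similar values with only that EpiLC library left out, but did not pass (edgeR adjusted p from 0.056 to 0.296).

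The EpiLC calls were the least stable. Fitting EpiLC libraries alone called 0 members and 0 genes, and leaving out WT replicate 1, 2 or 3 left 2, 3 and 2 members, Eno1 and Aldoa among them each time, and 1.51, 1.38 and 1.39% of all tested genes. Without only the library labelled KO A2, 4 were called, Eno1, Aldoa, Pkm and Pfkl, against 4.57% of all tested genes. DESeq2 called the same 8, against 14.2% of its genes. In this comparison 5 of 6 trophoblast and 3 of 5 tested mesenchymal markers were higher in KO and 4 of 7 formative epiblast markers lower. The formative markers summed to 2040 to 4200 CPM in KO and 5490 to 5630 CPM in WT, and what this shift contributes was not tested. Of related genes, Tkt (log2 -0.57 ± 0.10) and Taldo1 (-0.35 ± 0.08) of the pentose phosphate pathway and Mycn (-0.81 ± 0.22) were lower, Pfkfb1 (0.73 ± 0.17) and Stat3 (1.81 ± 0.32) were higher, and 0 of 15 hypoxia response genes were called.

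**Figure D5:**
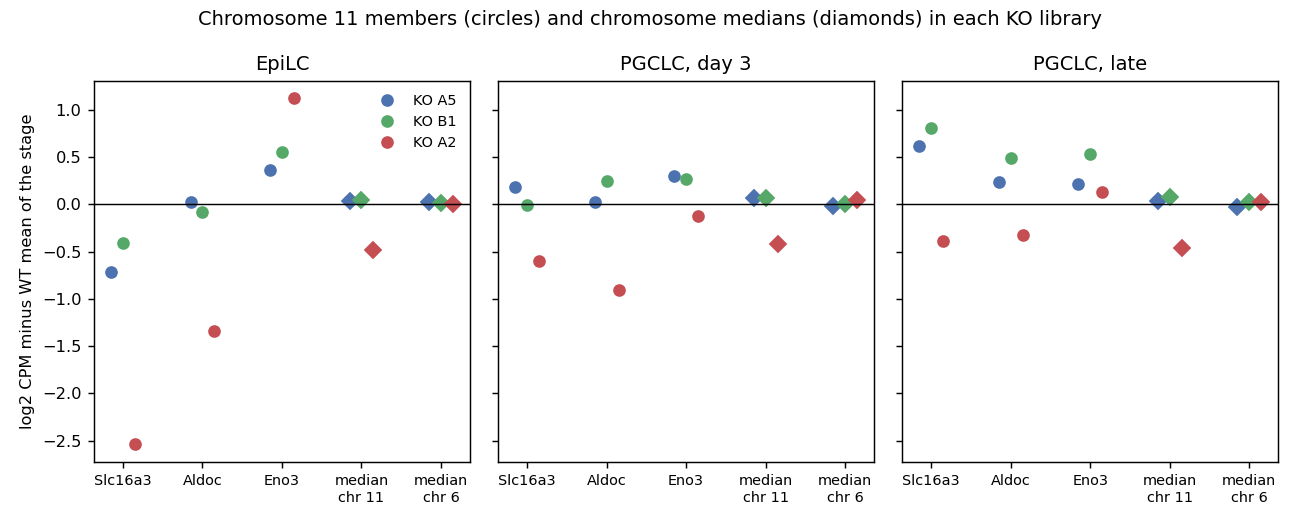
Log2 CPM minus the WT mean of the stage (y axis) for the 3 members on chromosome 11 (circles) and for the median gene of chromosomes 11 and 6 (diamonds) in each KO library, with 1 panel per stage. Line A2 has a chromosome 11 median of -0.48 to -0.42, and Slc16a3 and Aldoc are lowest in that line at each stage.

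The 3 members on chromosome 11, Slc16a3, Aldoc and Eno3, were read beside the chromosome as a whole. In line A2 Aldoc had a log2 difference to WT of -1.34 in EpiLC, -0.91 at day 3 and -0.32 in late PGCLC, against -0.08 to 0.49 in lines A5 and B1. Slc16a3 was at -2.54, -0.60 and -0.39 in line A2, against -0.72 to 0.81 in the other lines. Eno3 was highest in line A2 in EpiLC, at 1.12, and lowest in it at day 3 and in late PGCLC, at -0.12 and 0.13. KO values of these genes therefore depend on the line, and the share of the chromosome-wide shift in them was not tested. Hk1, Pfkp, Pgm1 and Pgd lie on other chromosomes.

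From day 3 to late PGCLC 0 of 33 members were called in WT and 0 in KO, against 0.77% and 0.552% of all tested genes. At an unadjusted p under 0.05, edgeR gave 5 members and 1791 genes in WT and 6 members and 1583 genes in KO. Median log2 fold changes were -0.04 and 0.11. The call in WT depended on the tool and samples, since DESeq2 called Pdha1, Pgk1 and Eno1 as lower, and a fit of the WT libraries of both times alone called 14 members, against 30.9% of all tested genes in that fit. DESeq2 called 2.53% of its genes. The fit of WT libraries alone takes its spread from those libraries, which the labels do not name as separate cultures. In the edgeR fit of these WT libraries alone, Pdha1 went from 369, 386 and 381 CPM to 280, 258 and 267 CPM without overlap (log2 -0.50 ± 0.05, edgeR adjusted p = 1.19e-11), and Pfkp from 564 to 620 CPM to 724 to 812 CPM (0.40 ± 0.05, edgeR adjusted p = 9.31e-10). In KO, leaving out line A2 led to 9 calls, against 6.72% of all tested genes in that fit, with Slc2a1 (0.68 ± 0.08), Pfkp (0.65 ± 0.11) and Slc16a3 (0.61 ± 0.09) higher and Pdha1 (-0.57 ± 0.08) and Hk1 (-0.47 ± 0.09) lower. Pdha1 was at 379 (A5), 369 (B1) and 339 (A2) CPM in KO day 3 and at 250, 252 and 339 CPM in late KO, and line A2 had the same value at both times. The difference between the genotypes in this step was called for 0 members and 0% of all genes by edgeR (2 members and 561 genes at an unadjusted p under 0.05), and without line A2 for Slc2a1 (0.65 ± 0.10) and Slc16a3 (0.63 ± 0.11), where 0.654% of all tested genes were called.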

How the data were processed

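Polyadenylated RNA of 18 libraries was measured with a directional library kit, per the labels' protocols. The submitters' processing notes name Trim Galore 0.4.3.1 and the build mm10 (GRCm38.p4). Aligner, counter, strand setting and annotation: not given in the sources used here. The authors deposited a count of uniquely assigned reads per gene and library, and a CPM table, whose values equal each count over its library total, on the CPM scale, within 1e-06. Entries without a gene ID (56 of 25965, 0.0559 to 0.0828% of counts) were left out, which left 25909 genes.

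The deposited counts were fitted with edgeR 4.0.16 (R 4.3.3): TMM factors (0.964 to 1.037), a filter on low counts that kept 12856 genes, 6 group means over all 18 libraries and the robust quasi-likelihood test (12 residual degrees of freedom). P-values were adjusted by Benjamini-Hochberg over all tested genes, and a gene was called under 0.05. Printed CPM use the TMM-scaled library, ± after a log2 fold change is its standard error, and CPM per kb divides by the exon length in GENCODE (GRCm38). The scripts were tested on simulated counts. Alternatives were RLE factors, no filter, DESeq2 1.42.0, limma 3.58.1 on log2 of the deposited CPM plus 1, only the groups compared, a replicate block, each library left out and line A2 left out.

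Members, related lists, and their grouping by role were chosen with earlier results of these data known. Members were described in full where called, up to the 8 largest differences per comparison plus isoenzyme partners, and related genes where called, up to the 4 largest per list. Same-named KO lines deviated together across stages (correlation 0.11 to 0.588, 9 of 9 pairs above 0.1), so the KO lines pair the KO libraries. WT replicate numbers did not (-0.048 to 0.066). WT and KO share no replicate names. No library was treated as a copy of another, since within-group pairs gave a chi-square over its degrees of freedom of 1.135 to 1.875 in WT and 4.118 to 36.03 in KO. Counting noise alone gives a value near 1, so the WT values do not show that WT libraries were separate cultures.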

Additional observations from a re-analysis of the deposited data

Results flagged for a closer look

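The step from EpiLC to day 3 PGCLC differed between KO and WT, by edgeR's test of the difference itself, for 4 of the 33 genes. The log2 difference was -2.33 for Hk1, which rose 8.71-fold in WT and 1.73-fold in KO. It was -1.16 for Pgm1, which rose 4.36-fold in WT and 1.96-fold in KO. It was 0.43 for Pkm, which was not called in WT and rose 1.42-fold in KO. It was 0.76 for Pgd, which fell to 0.344 times its EpiLC level in WT and to 0.583 times in KO. Adjusted p-values were 0.00253, 0.00972, 0.0292 and 0.0464 in that order. The EpiLC library labelled KO A2, which carries more Esrrb counts than WT and high levels of mesenchymal and trophoblast markers, had the highest EpiLC level of Hk1, Pgm1 and Pgd among the KO and WT libraries (85.5, 39.8 and 619 CPM), and its part in the differences was not tested beyond leaving the line out, which gave -1.59, -0.81, 0.36 and 1.11.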

How the results depend on the processing

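Of 72 member calls, 809 of 938 values under the alternatives kept direction and call, 129 lost the call and 0 reversed; DESeq2 kept 72 of 72, limma 68, RLE factors 71, no filter 66, only the groups compared 51 and leaving out line A2 69. In EpiLC, KO against WT called 8 members (11.1% of all tested genes), 0 with only the groups compared (0 genes) and 13 without line A2 (13.8%). Limma called 5 and fits with single libraries left out 2 to 10, and these counts are not set beside a share of all genes here. In late PGCLC the 7 calls (17.5% of all tested genes) became 11 without line A2 (29.9%). The KO step's 24 calls became 14 with only its groups, a fit that called 18.2% of all tested genes. For WT day 3 to late, 0 calls became 3 (DESeq2), 1 (limma), 14 (only the groups compared), 2 (replicate block) and 8 (without line A2). The fits behind these called 2.53%, 1.1%, 30.9%, 3.01% and 15.5% of all tested genes, in that order. For KO day 3 to late, 0 became 9 without line A2 (6.72% of all tested genes called). Leaving out single libraries gave 0 to 1, the 1 coming without late A2. The genotype difference in the first step went from 4 to 2 without the filter (3.43% of all tested genes called) or with only its groups (3.64%). Without line A2 it went to 11 (14.7%). Of its 4 calls, 2 were kept in all 19 alternatives. In the later step 0 became 2 without line A2 (0.654% of all tested genes called). Why these counts move was not tested. Fits of fewer groups have fewer residual degrees of freedom and take their spread from those groups alone. The main fit shares its estimate of spread over all 18 libraries, KO lines included. Pairs within a KO group differed more (chi-square over its degrees of freedom 4.118 to 36.03) than pairs within a WT group (1.135 to 1.875). The replicate block, which pairs KO lines, ended the KO call of Hk1 (0.80, adjusted p = 0.0641) and, in WT, where numbers do not pair libraries, that of Pfkfb3 (1.36, adjusted p = 0.058); it kept the other 48 of 50 calls it could be run on. No paired analysis was possible for KO against WT because the genotypes share no replicate names. The lowest counts in a single library were those of Eno2 and Pfkfb4 (8 each) and Gapdh (31), and Gapdh shares sequence with 127 other genes.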
